A study of Mus musculus with 12 samples.

Results

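The genes described here are 10 members of the Toll-like receptor system: the receptors Tlr1, Tlr2, Tlr4, Tlr6, Tlr7, Tlr8 and Tlr9, the co-receptors Cd14 and Ly96, and the adaptor Myd88. They were taken by symbol from a mouse exon array table, using only probe sets (groups of probes, most of them within 1 exon) that name no other gene. That gave 76 probe sets of 318760 with a single gene symbol, and 10 genes of 22296. Of the 76 probe sets, 56 had a mean above the filter level of 6.26 on the log2 scale and entered the gene values, and all 10 genes kept at least 1 of them.

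Toll-like receptors recognise microbial molecules. The heterodimers of TLR2 with TLR1 or TLR6 and the complex of TLR4 with MD-2 (encoded by Ly96) bind bacterial lipids at the cell surface, while TLR7, TLR8 and TLR9 sense nucleic acids inside endosomes. All of the receptors measured here signal through MyD88, which recruits IRAK kinases and leads to NF-kB activation and cytokine genes. In bone marrow these genes are best known from monocytes, macrophages and neutrophils, and some are already used by early myeloid progenitors.

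The cultures were primary bone marrow cells of female C57B/6 mice, 12 weeks old and treated with 5-FU, and were transduced with MSCV retroviral vectors. HOXA9+MEIS1 cells carried Hoxa9 together with Meis1. HOXA9+MDHD cells carried Hoxa9 with a Meis1 whose homeodomain, its DNA-binding part, had been deleted. HOXA9+MIY cells carried Hoxa9 with the empty MIY vector, so all 3 conditions overexpressed Hoxa9 and no untransduced cells were included. All cultures grew in DMEM with 15% FCS, IL3, SCF and IL6 and were harvested after 4 or 3 weeks. Each condition has 4 arrays, 2 per week, described as independent experiments. Whether a week 4 and a week 3 array come from 1 culture is not given, so the p-values measure the spread between these arrays. The cells are labelled as progenitors. The progenitor genes Kit (array values 9.80 to 10.60) and Cd34 (9.51 to 11.57) and the leukocyte gene Ptprc (10.66 to 11.08) lay well above the filter level on all 12 arrays. The conditions were not alike in Cd34. It ran from 9.51 to 10.26 in HOXA9+MIY, from 10.74 to 11.34 in HOXA9+MDHD and from 10.56 to 11.57 in HOXA9+MEIS1.

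Hoxa9 measured 13.27 to 13.46 on the HOXA9+MEIS1 arrays, 13.17 to 13.46 on the HOXA9+MDHD arrays and 13.22 to 13.35 on the HOXA9+MIY arrays. The HOXA9+MDHD arrays differed from each other before any receptor is considered. In 3 of the 23 Meis1 probe sets HOXA9+MEIS1 exceeded HOXA9+MDHD by more than 3 log2 units, and their mean was 12.83 and 12.91 (week 4) and 13.03 and 13.06 (week 3) on the HOXA9+MEIS1 arrays. On the HOXA9+MDHD arrays it was 8.67 and 8.97 on those numbered 1 (weeks 4 and 3) but 6.80 and 7.62 on those numbered 2. On the HOXA9+MIY arrays it ran between 6.04 and 6.56. These probe sets were picked for the excess of HOXA9+MEIS1 over HOXA9+MDHD. Among them, 4671083 gave 9.43 and 9.07 on the HOXA9+MDHD arrays numbered 1, and 8.83 and 8.95 on those numbered 2. Its HOXA9+MIY values were 6.35 to 6.95. The Meis1 gene value was 9.40 and 9.29 on the HOXA9+MDHD arrays numbered 1 and 9.02 and 8.92 on those numbered 2. On the HOXA9+MIY arrays it was 6.62 to 6.90. Calls of the 10 genes, their probe sets and the list genes named below that rest on HOXA9+MDHD are therefore also given without the arrays of either number, a choice made after seeing the data.

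With full-length Meis1 beside Hoxa9, 8 of the 10 genes were lower than with Hoxa9 and the empty vector, and none was called higher (adjusted p under 0.05, limma fit over 12 arrays). Tlr7 and Tlr8, endosomal sensors of RNA, showed the greatest differences of the gene values, followed by Tlr2 and Tlr1, Cd14, Ly96 and Tlr6, with Myd88 least. The place of Tlr7 rests on its 4 probe sets above the filter level: with the dim ones kept its difference was -0.87. Tlr9 and Tlr4 were not called. Of the 20711 genes tested, 5.52% were called lower and 5.26% higher, 10.8% in all. The median difference of the 10 genes was -0.84 log2 units, against -0.01 over all genes. The 10 genes and the lists below were chosen with earlier results of these data known. Shares of all genes are therefore given as a description and not as a test of these sets. In 8 of the 10, Tlr9 included but Tlr4 and Myd88 not, the 4 HOXA9+MEIS1 arrays and the 4 HOXA9+MIY arrays did not overlap, with HOXA9+MEIS1 lower, a pattern that 5.94% of all genes showed. For 9 of the 10 the mean order was HOXA9+MEIS1 lowest, HOXA9+MDHD between and HOXA9+MIY highest. Tlr4 ran the other way. These are bulk measurements, in which fewer cells of a type and less RNA per cell cannot be told apart.

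**Figure D1:**
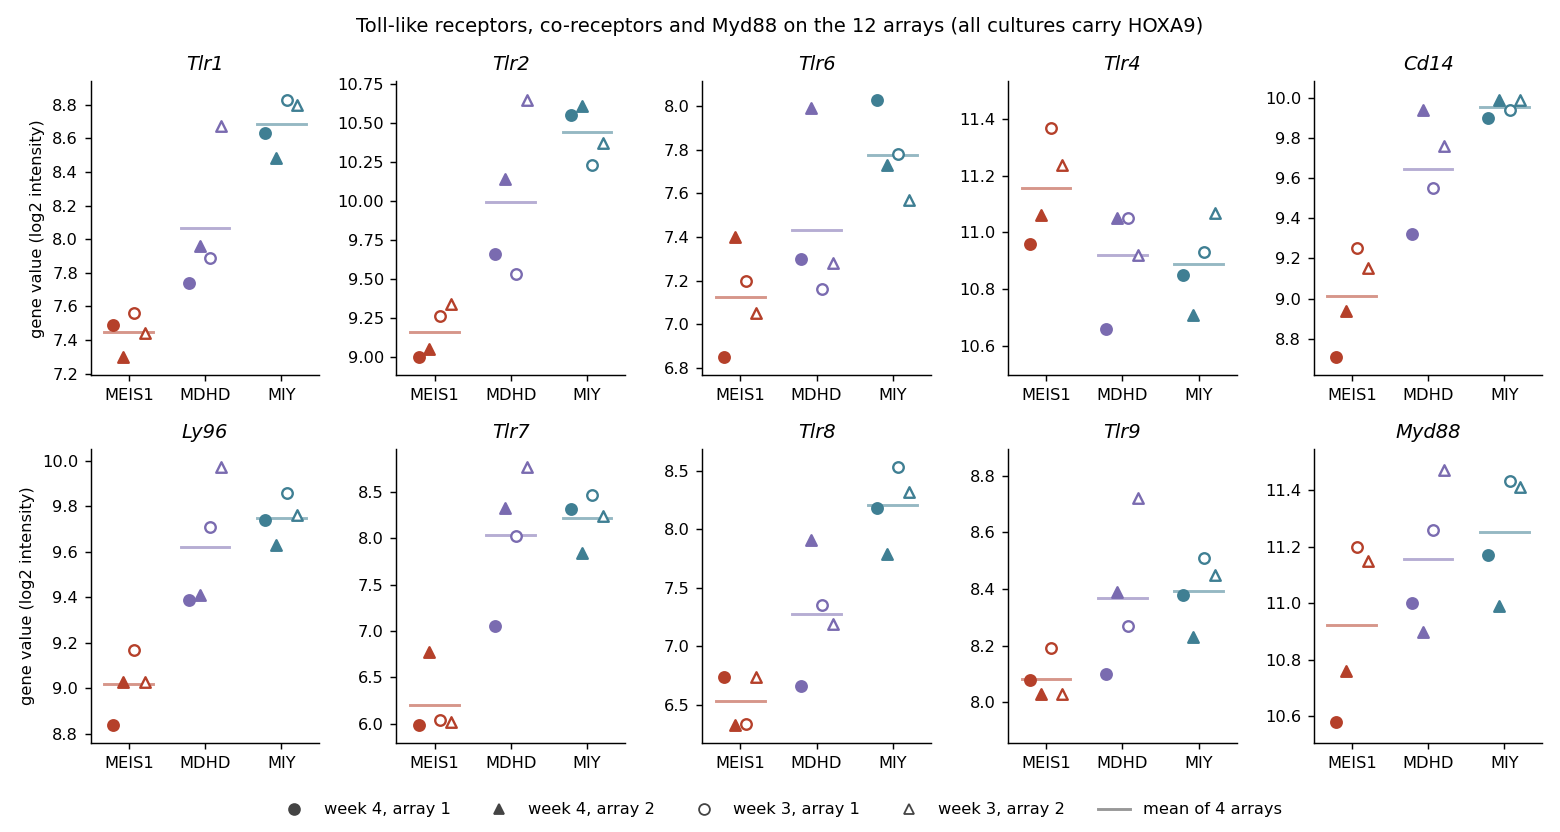
Gene values (log2 intensity, each panel with its own axis) on every array, with HOXA9+MEIS1, HOXA9+MDHD and HOXA9+MIY from left to right, week 4 filled, week 3 open, array number by shape, and bars at the mean of 4 arrays. In Tlr1, Tlr2, Tlr6, Tlr7, Tlr8, Tlr9, Cd14 and Ly96 the HOXA9+MEIS1 points lie wholly below the HOXA9+MIY points, and the HOXA9+MDHD points spread between and across them.

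RefSeq promoter windows (GRCm38.p6, 250 bases before to 50 after the start of transcription) were given for 6 of the 10 genes, as 8 windows. The windows of 4 called genes follow as examples, and those of Tlr6, also called lower, are not printed. Printed are the RNA sensor Tlr8 (chrX:167264280-167264579, minus strand), Tlr2 (chr3:83841559-83841858, minus strand), its partner Tlr1 (chr5:64933509-64933808, minus strand, the first of 2 windows) and the adaptor Myd88 (chr9:119339969-119340268, minus strand). Each is written 5′ to 3′ on the gene's strand, with matches to the searched motifs in capitals.
Tlr8: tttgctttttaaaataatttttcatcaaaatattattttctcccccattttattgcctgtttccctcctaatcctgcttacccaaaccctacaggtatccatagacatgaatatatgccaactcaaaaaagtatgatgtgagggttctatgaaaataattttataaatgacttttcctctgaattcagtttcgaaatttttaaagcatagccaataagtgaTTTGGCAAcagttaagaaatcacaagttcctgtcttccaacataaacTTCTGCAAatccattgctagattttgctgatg
Tlr2: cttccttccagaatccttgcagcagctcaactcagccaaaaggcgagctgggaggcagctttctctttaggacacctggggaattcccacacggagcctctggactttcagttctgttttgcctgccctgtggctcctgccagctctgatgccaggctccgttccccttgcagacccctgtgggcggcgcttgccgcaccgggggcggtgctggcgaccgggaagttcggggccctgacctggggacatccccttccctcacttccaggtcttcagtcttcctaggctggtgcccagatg
Tlr1: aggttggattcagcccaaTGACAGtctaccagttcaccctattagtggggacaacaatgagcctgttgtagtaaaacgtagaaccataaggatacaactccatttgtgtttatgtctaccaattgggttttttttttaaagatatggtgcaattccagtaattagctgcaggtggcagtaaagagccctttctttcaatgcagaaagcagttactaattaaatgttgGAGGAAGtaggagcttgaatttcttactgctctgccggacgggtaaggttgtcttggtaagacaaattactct
Myd88: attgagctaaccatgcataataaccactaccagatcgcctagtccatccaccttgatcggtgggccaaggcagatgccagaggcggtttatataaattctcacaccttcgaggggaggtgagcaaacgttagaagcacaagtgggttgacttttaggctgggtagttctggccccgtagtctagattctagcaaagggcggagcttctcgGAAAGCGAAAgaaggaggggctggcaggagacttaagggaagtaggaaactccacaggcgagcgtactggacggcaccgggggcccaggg

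On both strands of the 8 windows, 6 short motifs were searched: GAGGAAG for PU.1, TTGCNNAA for C/EBP, TGACAG for MEIS, TGATTNAT for HOX with PBX, GGG and TTTCC around any 2 bases for NF-kB, and GAAA on both sides of any 2 bases for the interferon response element. The Tlr8 window held 2 C/EBP matches, at -29 to -22 and at 19 to 26 from the start. The Tlr1 window held 1 PU.1 match at -23 to -17 and 1 MEIS match at -232 to -227. The Myd88 window held 1 interferon response element at -40 to -31, and the Tlr2 window held none of the 6 motifs as spelled here. Of the windows not printed, Tlr9 held 2 PU.1 matches, the first Tlr6 window held 1 C/EBP match and 2 overlapping interferon response elements, and the second windows of Tlr1 and Tlr6 held none. Among all 32851 windows of the same length, 13.6% held the PU.1 letters, 10.8% the C/EBP letters, 19.2% the MEIS letters and 3.22% the HOX with PBX letters. The NF-kB letters were in 1.63% of them and the interferon element in 3.44%. A match is a description of the letters and no evidence of binding. Other spellings of these sites were not searched, so a window without a match may still hold a site.

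Among the surface receptors for bacterial lipids, Tlr1, which pairs with TLR2 to bind triacylated lipopeptides, measured 7.49, 7.30 (week 4), 7.56 and 7.44 (week 3) on the HOXA9+MEIS1 arrays. On the HOXA9+MDHD arrays Tlr1 measured 7.74, 7.96, 7.89 and 8.67 in the same order. The HOXA9+MIY arrays gave 8.63, 8.48, 8.83 and 8.80. HOXA9+MEIS1 lay below every other array, and only the week 3 array numbered 2 of HOXA9+MDHD reached the HOXA9+MIY range. The difference of HOXA9+MEIS1 from HOXA9+MIY was -1.24 ± 0.14 (SE), 2.36-fold lower, with adjusted p = 0.000119. Tlr1 was also lower in HOXA9+MEIS1 than in HOXA9+MDHD (-0.62 ± 0.14, adjusted p = 0.026).

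Tlr2, the shared partner of these heterodimers, measured 9.00, 9.05, 9.26 and 9.34 with HOXA9+MEIS1 (week 4 pair, then week 3 pair). With HOXA9+MDHD it measured 9.66, 10.14, 9.53 and 10.65. With HOXA9+MIY the values were 10.55, 10.61, 10.23 and 10.37. All HOXA9+MEIS1 arrays lay below all others, while HOXA9+MDHD straddled the HOXA9+MIY range, its lowest values on the arrays numbered 1. HOXA9+MEIS1 differed from HOXA9+MIY by -1.28 ± 0.20, 2.43-fold lower (adjusted p = 0.00135), and from HOXA9+MDHD by -0.83 ± 0.20 (adjusted p = 0.039). With the week 3 arrays alone the Tlr2 difference from HOXA9+MIY was not called (adjusted p = 0.178).

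Tlr6, which pairs with TLR2 for diacylated lipopeptides, measured 6.85, 7.40, 7.20 and 7.05 with HOXA9+MEIS1. The HOXA9+MDHD values were 7.30, 7.99, 7.16 and 7.28. HOXA9+MIY gave 8.03, 7.73, 7.78 and 7.57. The HOXA9+MEIS1 and HOXA9+MIY arrays were separated by a small gap, and HOXA9+MDHD overlapped both. The difference of HOXA9+MEIS1 from HOXA9+MIY was -0.66 ± 0.16, 1.58-fold lower (adjusted p = 0.0201), and that call was lost without the week term (adjusted p = 0.0661), and without either of 2 HOXA9+MIY arrays (week 3 or week 4, numbered 1; -0.62 and -0.60) or without the week 4 HOXA9+MEIS1 array numbered 1 (-0.51).

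Tlr4, the receptor for lipopolysaccharide, was the exception. It measured 10.96, 11.06, 11.37 and 11.24 with HOXA9+MEIS1. HOXA9+MDHD gave 10.66, 11.05, 11.05 and 10.92, and HOXA9+MIY gave 10.85, 10.71, 10.93 and 11.07. The HOXA9+MEIS1 mean was above the HOXA9+MIY mean in both weeks, but its range overlapped both others. The difference from HOXA9+MIY was 0.26 ± 0.08 (95% interval 0.08 to 0.44) with adjusted p = 0.0636. The call against HOXA9+MIY turned on the setting: Tlr4 was called higher (0.28) after the arrays were centred on their medians, when only the arrays of these 2 conditions were fitted (0.26), and without either week 4 HOXA9+MDHD array (0.26).

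The co-receptors of TLR4 did not follow it. Cd14, which hands lipopolysaccharide to the TLR4 complex, measured 8.71, 8.94, 9.25 and 9.15 with HOXA9+MEIS1. It measured 9.32, 9.94, 9.55 and 9.76 with HOXA9+MDHD, and 9.90, 9.99, 9.94 and 9.99 with HOXA9+MIY. HOXA9+MEIS1 lay below every other array. Its Cd14 difference was -0.94 ± 0.13 from HOXA9+MIY (1.92-fold lower, adjusted p = 0.000361) and -0.63 ± 0.13 from HOXA9+MDHD (adjusted p = 0.0129). The call against HOXA9+MDHD was lost without the week term, with only these conditions fitted, and within either week alone (adjusted p between 0.056 and 0.164).

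Ly96, which encodes the lipid-binding subunit MD-2, measured 8.84, 9.03, 9.17 and 9.03 with HOXA9+MEIS1. The values were 9.39, 9.41, 9.71 and 9.97 with HOXA9+MDHD and 9.74, 9.63, 9.86 and 9.76 with HOXA9+MIY. Again no HOXA9+MEIS1 array reached any other array. The difference was -0.73 ± 0.09 from HOXA9+MIY (1.66-fold lower, adjusted p = 0.000156) and -0.60 ± 0.09 from HOXA9+MDHD (adjusted p = 0.00157).

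Of the endosomal receptors, Tlr7, a sensor of single-stranded RNA, measured 5.99, 6.77, 6.04 and 6.02 with HOXA9+MEIS1. It measured 7.05, 8.32, 8.02 and 8.76 with HOXA9+MDHD and 8.31, 7.84, 8.46 and 8.24 with HOXA9+MIY. In 3 of the 4 HOXA9+MEIS1 arrays Tlr7 was below the filter level, and the remaining array, week 4 numbered 2, stood apart from them. The difference from HOXA9+MIY was -2.01 ± 0.30 (adjusted p = 0.000816). Because the HOXA9+MEIS1 mean of 6.20 was below the filter level, the fold is given with each dim HOXA9+MEIS1 array raised to that level, as at least 3.55-fold lower than HOXA9+MIY. Against HOXA9+MDHD Tlr7 was at least 3.14-fold lower on the same basis (-1.84 ± 0.30, adjusted p = 0.00387). These bounds hold for the probe sets above the filter level. With the dim probe sets kept, the difference was -0.87 from HOXA9+MIY, still called, and -0.80 from HOXA9+MDHD, no longer called (adjusted p = 0.0646).

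Tlr8, a second receptor for RNA whose ligand response in mice is weaker than in humans, measured 6.74, 6.33, 6.34 and 6.74 with HOXA9+MEIS1. HOXA9+MDHD gave 6.66, 7.91, 7.35 and 7.19, and HOXA9+MIY gave 8.18, 7.79, 8.53 and 8.32. HOXA9+MEIS1 lay wholly below HOXA9+MIY, and HOXA9+MDHD reached into both ranges. The difference from HOXA9+MIY was -1.67 ± 0.23, 3.18-fold lower (adjusted p = 0.000448). Against HOXA9+MDHD it was -0.74 ± 0.23 (adjusted p = 0.106).

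Tlr9, the receptor for unmethylated CpG DNA, measured 8.08, 8.03, 8.19 and 8.03 with HOXA9+MEIS1. It measured 8.10, 8.39, 8.27 and 8.72 with HOXA9+MDHD and 8.38, 8.23, 8.51 and 8.45 with HOXA9+MIY. HOXA9+MEIS1 did not overlap HOXA9+MIY, though the gap was narrow. The difference of -0.31 ± 0.10 (95% interval -0.52 to -0.10) had adjusted p = 0.0644. Tlr9 was called lower when dim probe sets were kept (-0.43), under the stricter filter (-0.33), with the mean of the probe sets (-0.35), and with only these 2 conditions fitted (-0.31). It was also called without the week 3 HOXA9+MDHD array numbered 2 or the week 4 one numbered 1 (-0.31 in both).

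Myd88, the adaptor of these receptors, measured 10.58, 10.76, 11.20 and 11.15 with HOXA9+MEIS1. The HOXA9+MDHD values were 11.00, 10.90, 11.26 and 11.47, and the HOXA9+MIY values were 11.17, 10.99, 11.43 and 11.41. The 3 ranges overlapped. In every condition the week 4 arrays were below the week 3 arrays, and within each week HOXA9+MEIS1 was below HOXA9+MIY. The difference was -0.33 ± 0.07 from HOXA9+MIY (1.25-fold lower, adjusted p = 0.00569) and -0.23 ± 0.07 from HOXA9+MDHD (adjusted p = 0.0699). The call against HOXA9+MIY needed both weeks and the week term: the adjusted p was 0.488 without that term, 0.0731 at week 4 alone and 0.168 at week 3 alone.

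**Figure D2:**
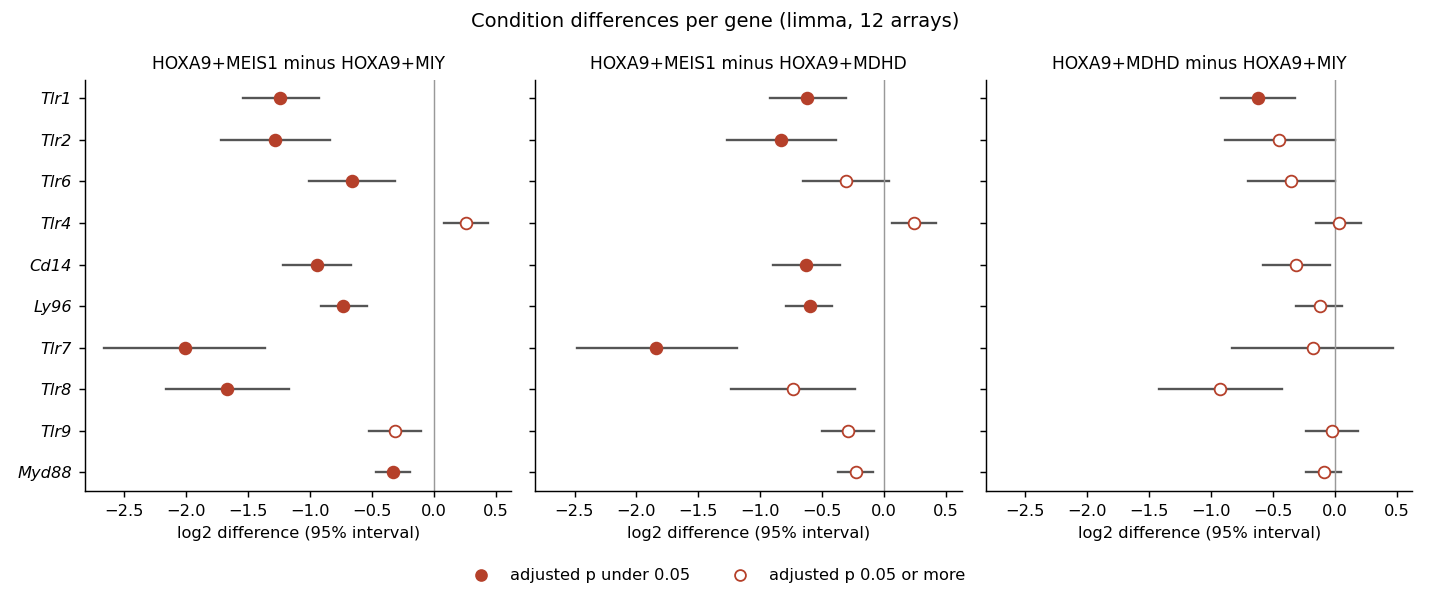
Differences of the 10 genes (log2, points, with 95% intervals as lines) for HOXA9+MEIS1 minus HOXA9+MIY, HOXA9+MEIS1 minus HOXA9+MDHD and HOXA9+MDHD minus HOXA9+MIY, filled where the adjusted p was under 0.05. There are 8 filled points in the first panel, 5 in the second and 1 in the third, all below 0.

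With the homeodomain-deleted Meis1, only Tlr1 was called lower than with the empty vector (-0.62 ± 0.14, 1.54-fold, adjusted p = 0.044). That is 1 of 10 genes, where 1.03% of all genes were called lower and 1.97% in either direction. Tlr8 had a larger difference of -0.93 ± 0.23 with adjusted p = 0.0647. For Tlr7 the difference was -0.18 ± 0.30 (95% interval -0.83 to 0.47, adjusted p = 0.873). In none of the 10 genes were the HOXA9+MDHD and HOXA9+MIY arrays free of overlap, which was so for 4.18% of all genes. The median of the 10 differences was -0.24.

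Full-length against homeodomain-deleted Meis1 gave 5 genes called lower, Tlr7, Tlr2, Cd14, Tlr1 and Ly96, where 2.11% of all genes were called lower and 4.38% in either direction. In the same 5 all HOXA9+MEIS1 arrays lay below all HOXA9+MDHD arrays, which was so for 2.54% of all genes. The median of the 10 differences was -0.61. The 3 comparisons share arrays, so their values are not independent of each other.

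These HOXA9+MDHD results depended on which arrays were used. Without its arrays numbered 1, no gene was called against HOXA9+MIY, where 1.03% of all genes were, and Tlr1 differed by -0.37. In that fit 7 genes were called lower in HOXA9+MEIS1 than in HOXA9+MDHD, where 2.80% of all genes were. Without its arrays numbered 2, Tlr1 (-0.87), Tlr2 (-0.85), Tlr8 (-1.20) and Cd14 (-0.52) were called lower than in HOXA9+MIY, where 2.72% of all genes were. In that fit 5 genes were called between HOXA9+MEIS1 and HOXA9+MDHD, where 3.66% of all genes were, among them Tlr4 with the higher value in HOXA9+MEIS1 (0.30). Single arrays mattered as much. The Tlr1 call against HOXA9+MIY was kept without either HOXA9+MDHD array numbered 2 and was lost without any other single array (-0.65 to -0.51). Without the week 4 HOXA9+MDHD array numbered 2, Tlr6 (-0.52), Tlr8 (-1.19) and Cd14 (-0.45) were called beside Tlr1, and Tlr4 was called higher in HOXA9+MEIS1 than in HOXA9+MDHD (0.33). The Tlr2 call for HOXA9+MEIS1 against HOXA9+MDHD was kept without the week 3 HOXA9+MIY array numbered 1 or either HOXA9+MDHD array numbered 1, and lost without any other single array. For Tlr1 that call was lost without the week 4 HOXA9+MDHD array numbered 2 or any HOXA9+MEIS1 array but the week 4 one numbered 1. Tlr8 was called (-0.94) without the week 4 HOXA9+MDHD array numbered 1, and Myd88 (-0.28) without the week 3 one numbered 1.

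Taking the HOXA9+MIY mean of the same week as 0% and the HOXA9+MEIS1 mean as 100%, the place of each HOXA9+MDHD array was worked out for the 8 genes lower in HOXA9+MEIS1. The median place was 59.8% on the week 4 array numbered 1 and 62.2% on the week 3 array numbered 1. It was 16.7% on the week 4 array numbered 2 and -3.4% on the week 3 array numbered 2. Genes differed within an array: on the week 3 array numbered 2, Tlr8 stood at 65.6% and Tlr6 at 72.5%, while Tlr2 stood at -35.1% and Ly96 at -22.3%. The part that the Meis1 probe set level of an array has in this spread was not tested.

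**Figure D3:**
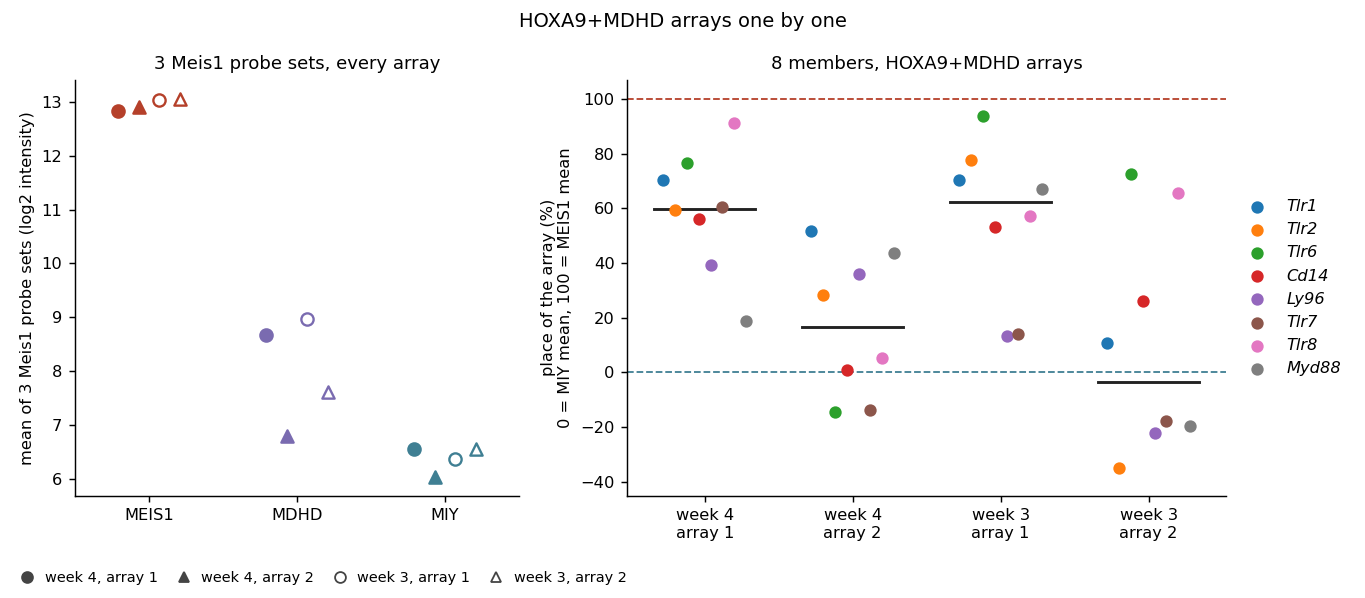
Left, the mean of 3 Meis1 probe sets (log2 intensity) on each array, with HOXA9+MEIS1, HOXA9+MDHD and HOXA9+MIY from left to right. Right, for each HOXA9+MDHD array, the place of 8 genes between the HOXA9+MIY mean (0%) and the HOXA9+MEIS1 mean (100%) of its week, with a bar at the median. The 3 probe sets were picked for the excess of HOXA9+MEIS1 over HOXA9+MDHD. The 2 arrays numbered 1 have the higher means of these probe sets in their condition. Their medians on the right are 59.8% and 62.2%, and those of the arrays numbered 2 are 16.7% and -3.4%.

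Single probe sets showed how evenly a gene's difference was spread over its probe sets. Of the 76, 42 were called lower and 1 higher with HOXA9+MEIS1 than with HOXA9+MIY, where 3.50% and 3.20% of the 318760 probe sets were. All 7 probe sets of Ly96 were called lower, between -1.35 and -0.57, and all 7 of Tlr8. The furthest of Ly96, 4988474, had a HOXA9+MEIS1 mean of 5.72, below the filter level, and was at least 1.69-fold lower. The 3 Tlr8 probe sets with a mean over all arrays above the filter level differed by -2.74 to -1.16. The furthest of these, 5229172, had a HOXA9+MEIS1 mean of 5.77, below that level, and was at least 4.74-fold lower. The other 4 of Tlr8 are dim, and the furthest of them, 4668770, was at least 1.99-fold lower in HOXA9+MEIS1. For Tlr1 it was 6 of 7 and for Cd14 5 of 6, and the others lay below 0 as well. The called Tlr1 probe sets 5394913 and 5251592 are dim. Fewer were called lower for Tlr6, 3 of 11, with differences of all 11 between -0.90 and -0.05. For Myd88 it was 4 of 7, with differences of all 7 between -0.37 and 0.05. All 7 Tlr4 probe sets lay above 0, between 0.11 and 0.40, and 1 was called higher.

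Other genes were uneven. In Tlr7, probe set 4732269 averaged 6.13 ± 0.37 in HOXA9+MEIS1 and 9.20 ± 0.37 in HOXA9+MIY (SD, n = 4 each). Since the HOXA9+MEIS1 mean is below the filter level, that is at least 7.14-fold lower. The brightest probe set of Tlr7, 5610336, differed by -1.26, and another differed by 0.03 with means of 4.52 and 4.49, below the filter level. In Tlr2, the brightest pair differed by -1.39 and -1.32, whereas probe set 4406822 had 9.09 ± 0.09 in HOXA9+MEIS1 and 9.12 ± 0.07 in HOXA9+MIY (-0.03, adjusted p = 0.92). Tlr9 was split as well, with 4 of its 10 probe sets called lower. Those above the filter level differed by -0.99 to -0.58, and the dim 4564060 by -1.23. Its brightest probe set differed by -0.21 and another by 0.13. Which exons these probe sets lie in is not analysed here.

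For homeodomain-deleted Meis1 against the empty vector, 3 of the 76 probe sets were called lower, where 0.534% of all were. They were 1 of Tlr6, at -0.66, and 2 of Tlr8 that lie below the filter level on average, 1 of them in both conditions. Without the HOXA9+MDHD arrays numbered 1 the count was 1, where 0.369% of all probe sets were called lower, and without those numbered 2 it was 16, where 1.47% were. Full-length against homeodomain-deleted Meis1 gave 20 probe sets called lower and 1, of Tlr4, called higher, where 1.53% and 1.24% of all were. Without the HOXA9+MDHD arrays numbered 1 it gave 26 lower and none higher, where 1.87% and 1.78% of all were. Without those numbered 2 it gave 9 lower and 2 higher, where 1.42% and 0.978% of all were.

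**Figure D4:**
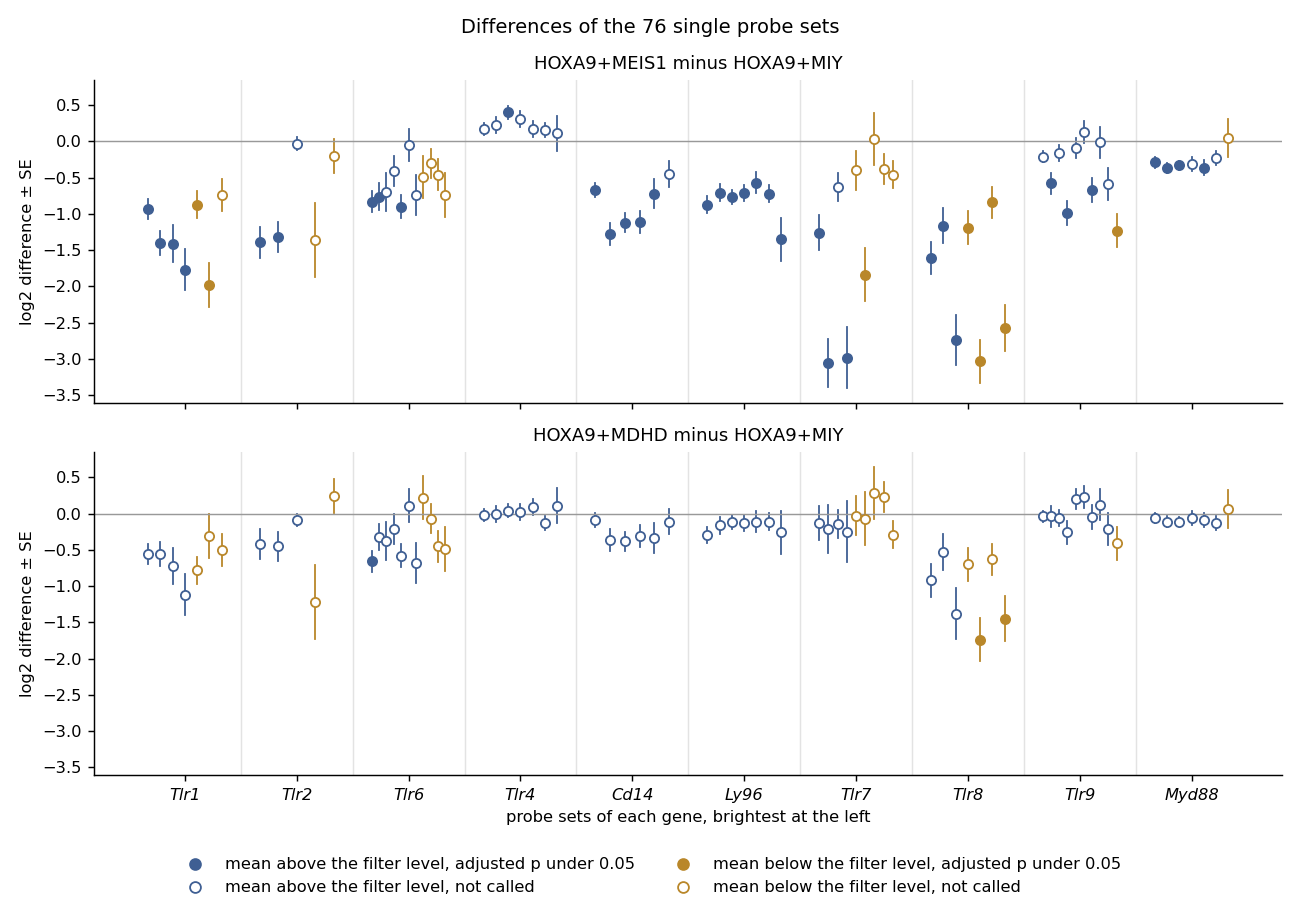
Differences (log2, ± SE) of the 76 probe sets for HOXA9+MEIS1 minus HOXA9+MIY (top) and HOXA9+MDHD minus HOXA9+MIY (bottom), ordered by brightness within each gene, blue above and ochre below the filter level, filled where called. The points of Ly96, Cd14 and Tlr8 all lie below 0 at the top, those of Tlr7 and Tlr9 spread widely, and those of Tlr4 lie above 0.

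Week 4 arrays were lower than week 3 arrays in 3 of the 10 genes, Myd88 (-0.42 ± 0.05, adjusted p = 4.18e-05), Ly96 (-0.24 ± 0.07, adjusted p = 0.0141) and Tlr4 (-0.21 ± 0.07, adjusted p = 0.0234). In each of these genes the week 4 mean was the lower one in 3 of 3 conditions. That share is near the background, since 28.1% of all genes were called lower at week 4 and 39.8% in either direction. The week comparison turned on the scaling: after quantile or cyclic loess normalization only Myd88 was still called, the signs of Tlr2 and Cd14 changed, and the share of called genes that were higher at week 4 was 46.3% or 51.4%, against 29.4% as deposited. The Tlr4 call was also lost without any of 5 single arrays (-0.17 to -0.19), the week 3 and week 4 HOXA9+MIY arrays numbered 2, both HOXA9+MEIS1 arrays numbered 1 and the week 4 HOXA9+MDHD array numbered 1. Tlr1 was called lower at week 4 (-0.34) without the week 3 HOXA9+MDHD array numbered 1, and Cd14 (-0.23) without the week 4 one numbered 2.

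None of the 10 genes had a condition difference that was called different between the weeks, in any of the 3 comparisons, and at an unadjusted p under 0.05 there was none either. Without the HOXA9+MDHD arrays numbered 1, which leaves 1 array of that condition per week, assumed to vary like the other groups, Tlr2 alone of the 10 was called beside 0.874% of all genes (181), with a HOXA9+MDHD minus HOXA9+MIY difference that changed by -0.79 at week 4 relative to week 3 (adjusted p = 0.0264). Over all genes, limma called 0 in each of the 3 tests, with 1358 (HOXA9+MEIS1 minus HOXA9+MIY), 1011 (HOXA9+MDHD minus HOXA9+MIY) and 1557 (HOXA9+MEIS1 minus HOXA9+MDHD) at an unadjusted p under 0.05. The intervals were wide. For Tlr7 in HOXA9+MEIS1 minus HOXA9+MIY, the difference was larger in size at week 3 (-2.32) than at week 4 (-1.70), and the change of 0.62 had a 95% interval of -0.63 to 1.87.

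Further genes of the pathway were taken from 8 lists with 100 genes, 96 of them tested. Cd180 and Ly86, which together form the RP105 complex that restrains TLR4 signalling in some cells and promotes it in B cells, were both lower in HOXA9+MEIS1 than in HOXA9+MIY. Cd180 averaged 7.74 ± 0.57 in HOXA9+MEIS1 and 9.94 ± 0.63 in HOXA9+MIY (SD, n = 4 each), a difference of -2.21 (adjusted p = 1.5e-06), and Ly86 differed by -1.26. Tlr3, the receptor for double-stranded RNA that does not use MyD88, differed by -0.42. These were 3 of 6 tested in their list. Ly86 was also lower in HOXA9+MDHD than in HOXA9+MIY (-1.24, adjusted p = 0.00313), and Cd180 was lower in HOXA9+MEIS1 than in HOXA9+MDHD (-2.00). Both calls held without the HOXA9+MDHD arrays numbered 1 (Ly86 -1.28, Cd180 -2.22) and without those numbered 2 (-1.21 and -1.78).

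Of 12 genes for ligand transfer, chaperones and endosomal handling, 5 were lower in HOXA9+MEIS1 than in HOXA9+MIY and none was higher. The endosomal proteases Ctss (-3.46, adjusted p = 5.12e-07), Lgmn (-1.92) and Ctsl (-0.44) were among them, as was Unc93b1 (-0.60), the chaperone that carries the nucleic acid receptors to endosomes. Unc93b1 averaged 8.71 ± 0.04 in HOXA9+MEIS1, 8.89 ± 0.17 in HOXA9+MDHD and 9.31 ± 0.08 in HOXA9+MIY, and it was lower in HOXA9+MDHD than in HOXA9+MIY as well (-0.42, adjusted p = 0.0219). Cd36, a scavenger receptor that delivers lipids to TLR2 and TLR6, was higher in HOXA9+MDHD than in HOXA9+MIY (1.82 ± 0.29, adjusted p = 0.00991) and lower in HOXA9+MEIS1 than in HOXA9+MDHD (-1.31). Without the HOXA9+MDHD arrays numbered 1, the Unc93b1 call (-0.28, adjusted p = 0.0962) and both Cd36 calls (1.45, adjusted p = 0.0519, and -0.95, adjusted p = 0.101) were lost. Without those numbered 2 all 3 held (Unc93b1 -0.57, Cd36 2.18 and -1.68).

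Of the 5 other TIR adaptors none was called in any of the 3 condition comparisons, and the greatest difference of HOXA9+MEIS1 from HOXA9+MIY among them was that of Ticam2 (-0.34, adjusted p = 0.169), followed by Pik3ap1 (-0.14, adjusted p = 0.173). Among 15 genes of IRAK, TRAF and TAK1 signalling, the ubiquitin ligase Peli2 was lower (-1.01), and the kinase Btk (0.26) and the inhibitory IRAK family member Irak3 (0.23) were higher with HOXA9+MEIS1 than with HOXA9+MIY. The median of the 15 was 0.04. Among 17 IKK, NF-kB and IRF genes 4 were lower, the transcription factors Irf5 (-0.94) and Irf8 (-0.90), the NF-kB inhibitor Nfkbia (-0.62) and the kinase Ikbke (-0.53). None of the 17 was called higher, and their median was -0.10.

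Of 12 negative regulators, the inhibitory receptor Cd300lf (-1.30), the cytokine signalling suppressor Socs3 (-0.79) and the transcriptional repressor Atf3 (-0.70) were lower and none was higher. Among 6 receptors of the IL1 family, whose signalling members also use MyD88, Il1rl2 (-1.42), Il18rap (-0.54) and the decoy receptor Il1r2 (-1.73) were lower. Of 23 genes that these receptors can induce, 5 were lower and 2 higher: Saa3 (-3.45), Il1a (-3.14, with a HOXA9+MEIS1 mean of 5.79, below the filter level), Il1b (-2.34) and Ccl2 (-1.95) fell furthest. The median of the 23 was -0.32. The labels name no added agonist, so none of these values measures a response to one.

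Markers of mature myeloid cells moved in the same direction. Of 13 monocyte and macrophage markers, 10 were lower and 1, Emr1, was higher with HOXA9+MEIS1 than with HOXA9+MIY, and the mean of the list ran from 8.01 to 8.33 on the HOXA9+MEIS1 arrays, from 8.97 to 9.71 on the HOXA9+MDHD arrays and from 9.57 to 9.74 on the HOXA9+MIY arrays. Of 13 late neutrophil markers 11 were lower, with list means of 7.89 to 8.32, 8.30 to 10.28 and 9.84 to 10.79 in HOXA9+MEIS1, HOXA9+MDHD and HOXA9+MIY. Ms4a6c and Stfa2, each in 1 of these lists, had HOXA9+MEIS1 means below the filter level, and no other marker of them did. Ctss and Lgmn stand in both the macrophage list and the endosomal list. Of the plasmacytoid dendritic, conventional dendritic, B lymphoid, mast cell and T and NK lists, no list had more than 2 genes called between HOXA9+MEIS1 and HOXA9+MIY, and their medians lay between -0.22 and 0.01. Called higher in these lists were Flt3 (3.16), Gata2 (1.02) and Runx2 (0.73). Called lower were Cd74 (-1.2), Klk1 (-0.97) and Cd79b (-0.62). The part of all these cell types in the receptor values was not tested.

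**Figure D5:**
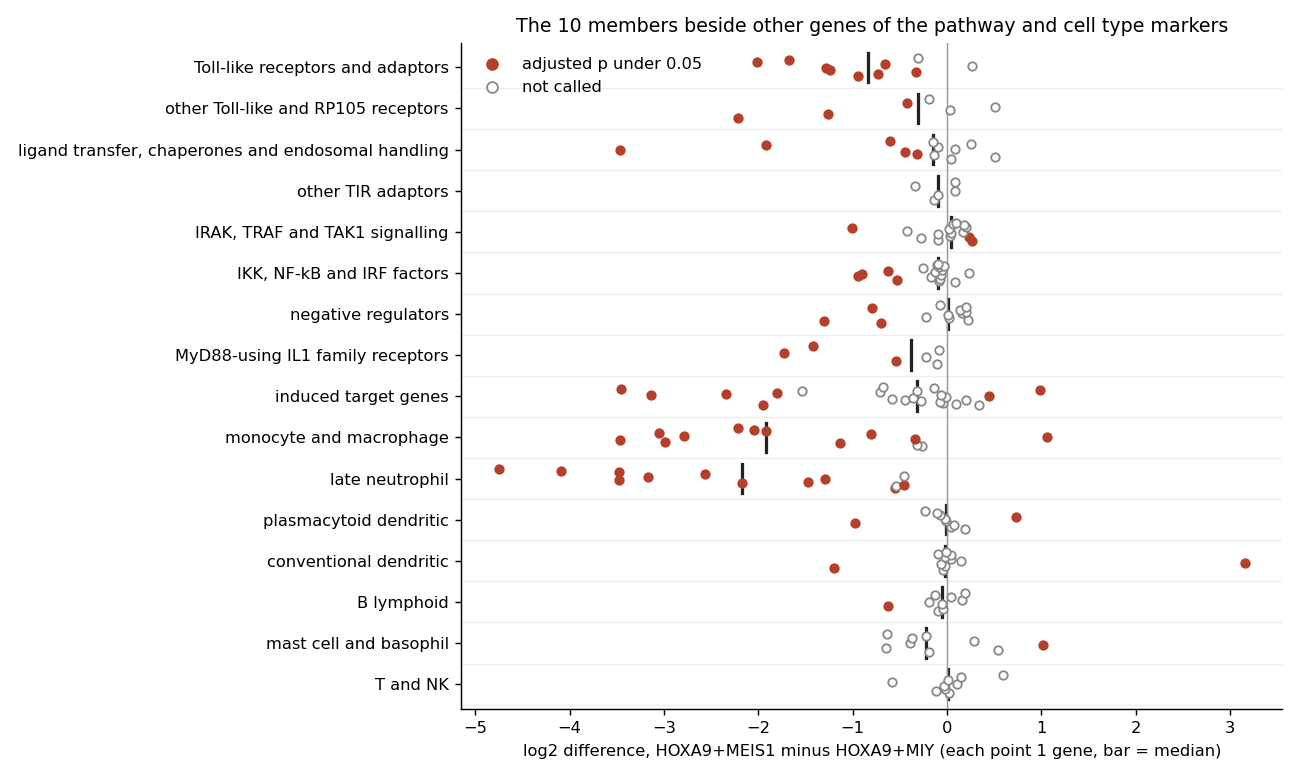
Differences (log2) of HOXA9+MEIS1 minus HOXA9+MIY, each point 1 gene and each bar a list's median, for the 10 genes (top), 8 lists of other pathway genes and 7 lists of cell type markers, filled where called. The 10 genes have a median of -0.84, the lists of signalling genes have medians near 0, and the monocyte and macrophage and late neutrophil markers have medians of -1.92 and -2.17.

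For each of the 8 called genes the genes with the most similar values over the 12 arrays were ranked by Pearson correlation. The ranking is a description, since differences between conditions and between weeks both enter the correlation. For Myd88 the week difference (-0.42) was larger in size than that of HOXA9+MEIS1 from HOXA9+MIY (-0.33). Closest to Tlr7 were Stard9 (r = 0.955), Bin1 and Dab2, and closest to Tlr8 were Rnd3 (r = 0.954), Socs3 and Aldh3b1. For Tlr2 they were Slc11a1 (r = 0.979), Saa3 and Il1b, and for Tlr1 Pik3r6 (r = 0.965), Fcgr1 and Gpr183. Nod1 (r = 0.948), Soat1 and Tnfsf13b were closest to Tlr6. Evi2a (r = 0.977), Pilra and Bin1 were closest to Cd14, and Cd80 (r = 0.970), Lipa and Cd180 to Ly96. Myd88 stood with Dnajc13 (r = 0.976), Coro1a and Atp6v1c1. Among the 10 genes themselves, Tlr2 and Cd14 (r = 0.924) and Tlr7 and Ly96 (r = 0.924) were nearest to each other, while the nearest member to Myd88 was Ly96 with r = 0.786.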

How the data were processed

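Total RNA of bone marrow cultures was hybridised to 12 Affymetrix mouse exon arrays. Per the submitters' processing notes, the authors used Affymetrix Expression Console and RMA, whose versions are not given in the sources used here. The deposited values are log2 intensities per exon-level probe set. Array medians lay between 6.258 and 6.301, and arrays correlated with each other at 0.9671 to 0.9845. Precision is limited by the small number of arrays. The genome build is not given in the sources used here.

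The table held 1256831 probe sets, of which 318760 named 1 gene symbol, 6684 several and 931387 none. Probe sets naming 1 symbol with a mean above the 50th percentile of all (6.26) were combined per gene by median polish, which gave 20711 genes. A gene had a median of 8 probe sets. limma 3.58.1 (R 4.3.3) fitted condition and week to all 12 arrays with a trended eBayes prior (8 residual degrees of freedom), and p-values were adjusted by Benjamini-Hochberg over all genes. A second fit of the 6 groups tested whether condition differences differed between weeks. Probe sets were fitted alike over all 318760. Called means an adjusted p under 0.05, two-sided. The fit was tested on simulated data.

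The 10 members and all gene lists were chosen with earlier results of these data known. All members are named. From each pathway list up to 4 called genes of greatest change are named (up to 2 in a list without calls), and for each called member the 3 genes of highest correlation. List genes without a gene value here are not reported. Arrays of the same number correlated in their deviations at -0.112 to 0.132 over 6 pairs of conditions within weeks (1 over 0.1) and at -0.067 to 0.135 across weeks over 3 conditions (1 over 0.1, HOXA9+MDHD). Pairing was set to need every correlation over 0.1, so none was used. Alternatives were the filter, the gene summary, the scaling, the week term, the arrays fitted, the prior, replicate blocks and leaving out arrays.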

Additional observations from a re-analysis of the deposited data

Results flagged for a closer look

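Each gene in each condition, 4 arrays at a time, was examined for an array far from the other 3, in 30 groups. Chance alone gives such an array in about 1 in 20 groups. The single case was Tlr7 with HOXA9+MEIS1, where the week 4 array numbered 2 measured 6.77 and the others 5.99, 6.04 and 6.02. The gap to the nearest of them was 0.937 of the whole range, above Dixon's critical value at the 95% level for 4 samples. Without that array the Tlr7 difference of HOXA9+MEIS1 from HOXA9+MIY was -2.26 and stayed called.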

How the results depend on the processing

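The 8 genes called lower in HOXA9+MEIS1 than in HOXA9+MIY numbered 7 to 9 with any 1 array left out (7 to 10 called in either direction, Tlr4 being the one called higher), 6 without the week term or with the week 3 arrays alone, and 4 with the week 4 arrays alone, where Tlr6 (-0.76), Tlr7 (-1.70), Tlr8 (-1.45) and Myd88 (-0.41) were no longer called and each week has 2 arrays a condition. No member changed direction in this comparison or in HOXA9+MEIS1 minus HOXA9+MDHD under any alternative run. For HOXA9+MEIS1 minus HOXA9+MDHD the 5 called genes became 2 when dim probe sets were kept, without the week term, with the week 3 arrays alone or with only these conditions fitted, 0 with the week 4 arrays alone, and 3 to 6 with 1 array left out. For HOXA9+MDHD minus HOXA9+MIY the count of 1 became 2 when dim probe sets were kept or with a random replicate block, and 0 without the week term, with the week 4 arrays alone, with only these conditions fitted, with an untrended prior or with the replicate block of week and number. Leaving out 1 array gave 0 to 4, and leaving out both HOXA9+MDHD arrays numbered 1 or both numbered 2, chosen after seeing the data, gave 0 and 4. The numbers did not meet the criterion for pairing, and the replicate block gave 8 and 5 called genes in the other comparisons. The 3 genes called by week became 1 after quantile or cyclic loess normalization, 5 without the HOXA9+MDHD arrays numbered 2, and 2 to 4 with 1 array left out. The week dependence of HOXA9+MDHD minus HOXA9+MIY, called in 0 genes, was called in 1 without the HOXA9+MDHD arrays numbered 1. Called probe sets were 27 (week 3 alone) and 21 (week 4 alone) in place of 43 for HOXA9+MEIS1 minus HOXA9+MIY, with 36 to 46 when 1 array was left out. They were 11 and 5 in place of 21 for HOXA9+MEIS1 minus HOXA9+MDHD, with 15 to 24 when 1 array was left out and 11 without the HOXA9+MDHD arrays numbered 2. For HOXA9+MDHD minus HOXA9+MIY they were 0 at week 4 alone in place of 3, with 1 to 10 when 1 array was left out, and 1 or 16 without the HOXA9+MDHD arrays numbered 1 or 2. Signs turned only in small differences. In HOXA9+MDHD minus HOXA9+MIY the week 3 arrays alone gave -0.02 for Tlr4, 0.04 for Tlr7, 0.02 for Tlr9 and 0.03 for Ly96, the stricter filter gave 0.01 for Tlr9, the arrays without number 1 gave 0.32 for Tlr7 and 0.16 for Tlr9, and those without number 2 gave -0.04 for Tlr4. With 1 array left out this difference ran from -0.06 to 0.08 for Tlr4, -0.41 to 0.15 for Tlr7 and -0.12 to 0.05 for Tlr9. By week, Tlr2 gave 0.10 after quantile and 0.15 after cyclic loess normalization and 0.03 without the HOXA9+MDHD arrays numbered 2, and Cd14 gave 0.02 and 0.07 after these normalizations. With 1 array left out the week difference ran from -0.19 to 0.09 for Tlr2 and -0.38 to 0.01 for Tlr7. Over all genes the calls ranged from 809 to 3081 in place of 2232 for HOXA9+MEIS1 minus HOXA9+MIY, from 210 to 1245 in place of 908 for HOXA9+MEIS1 minus HOXA9+MDHD, and from 11 to 1109 in place of 409 for HOXA9+MDHD minus HOXA9+MIY. The cause of these changes was not tested. The fits of 1 week also rest on fewer arrays. No signal detection values were used, so what lies below the filter level is known only as dim.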
